A study of Mus musculus with 9 samples.

Results

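The 35 genes described here encode the route by which the liver turns carbohydrate into fatty acids and triglyceride, together with its main regulators. They were taken from a fixed list of gene symbols that was chosen with earlier results of these data known. Each was read from the Affymetrix probe set annotated to that gene alone with the highest mean over the 9 arrays. Of the 35 genes, 34 were measured, among 18193 genes in all. G6pdx was not analysed here. The 34 genes had 77 probe sets, so 43 further probe sets of 23 genes could be set beside the brightest ones.

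Liver RNA came from KKAy mice aged 8 weeks, a KK strain made obese and diabetic by the yellow Ay allele, which all 3 groups carry. BI livers came from mice injected intraperitoneally with 100 µL of DMEM holding insulin at 40 µg/mL, of which 11% was biomineralized in place, and insulin livers from mice given the same volume and total insulin without that modification. Untreated livers are those whose treatment is labelled none, and whether they are the DMEM-injected control mice of the treatment protocol is not stated in the labels. The chow held 34% fat according to the labels of 8 arrays, while the growth text of BI replicate 2 describes rats. Each group had 3 arrays. Whether an array held RNA of 1 animal or of several, and how long after the last injection and meal the liver was taken, is not stated in the labels. Errors and p-values therefore describe the variation among these 9 samples alone, part of which may be technical. All values are log2 signals as deposited, and differences are log2 differences ± SE from 1 limma fit over 45037 probe sets.

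In the liver, insulin and dietary carbohydrate drive this pathway through 2 transcription factors, SREBP-1c (encoded by Srebf1) and ChREBP (encoded by Mlxipl), with the oxysterol receptor LXR-alpha (Nr1h3) acting on Srebf1. Citrate exported from mitochondria is cleaved to acetyl-CoA, carboxylated to malonyl-CoA and condensed to palmitate, which is then elongated, desaturated and esterified to glycerol. Obese, hyperinsulinaemic mice are known for keeping this pathway active while the liver resists insulin's restraint on glucose output.

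None of the 34 genes passed the test with either treatment (limma, Benjamini-Hochberg adjusted p of 0.05), and most had a slightly lower mean than in untreated liver. In BI livers 28 of 34 genes were lower than in untreated livers and 6 were higher, with a median difference of -0.25, against 49.9% lower and a median of 0.00 over all genes. In insulin livers 26 were lower and 8 higher, with a median of -0.16, against 46.3% lower and a median of 0.02 over all genes. Averaging the probe sets of each gene, in place of taking the brightest, gave 23 lower with BI and 25 with insulin. The smallest adjusted p among the 34 was 0.999 in BI against untreated, where 0.0111% of all probe sets were called, and 0.9999 in insulin against untreated, where 0% were. At an unadjusted p under 0.05, read from the brightest probe set of each gene, Pnpla3 alone was lower in BI livers, which is 1 of 34 genes beside 1.77% of all genes, and 0 of 34 were higher beside 2.13%. Taken in either direction, this count depended on the arrays and the variance model. It was 0 without untreated replicate 3, 8 without untreated replicate 1 and 6 with trend and robust variance moderation. The share of all genes was not computed under such settings, so these counts cannot be read against the shares given here. In insulin livers 0 of 34 were lower and 0 of 34 higher at that level, beside 1.39% and 2.48% of all genes. Without untreated replicate 1 the count in either direction was 3, with no share of all genes computed. As BI and insulin livers were set against the same untreated arrays, their mean was also contrasted once with untreated livers: 27 of 34 genes were lower, the median was -0.21, 0 genes were called beside 0% of probe sets, and 0 were lower and 0 higher at an unadjusted p under 0.05, beside 1.49% and 2.67% of all genes. The count in either direction was 9 without untreated replicate 1 and 5 with trend and robust variance moderation, again with no share of all genes computed.

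One array stood apart for these genes. Untreated replicate 3 had the highest of the 9 signals for 21 of the 34 genes (61.8%), while it was the highest array for 12.4% of all genes. This was not particular to the 34 genes, as it was also the highest array for 15 of 18 cholesterol synthesis genes. It lay above all 6 treated arrays for 22 of 34 genes, beside 15.7% of all genes. The lowest signal of the 9 was most often on another untreated array, replicate 1, for 9 of 34 genes, beside 12.6% of all genes. For 20 of 34 genes replicate 1 was the lowest and replicate 3 the highest of the untreated arrays, beside 17.3% of all genes. The median over the 34 genes of the deviation from each gene's own mean was -0.15, 0.00 and -0.05 on the BI arrays and 0.12, 0.00 and -0.26 on the insulin arrays, against -0.20, 0.12 and 0.53 on the untreated arrays. The BI and insulin arrays thus lay within the span of the untreated ones, except that insulin replicate 3 lay below them. Without untreated replicate 3, the median difference was -0.06 in BI livers with 21 of 34 genes lower, and -0.003 in insulin livers with 17 of 34 lower. Without untreated replicate 1, the medians were -0.39 and -0.27, with 29 of 34 genes lower in each.

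**Figure D1:**
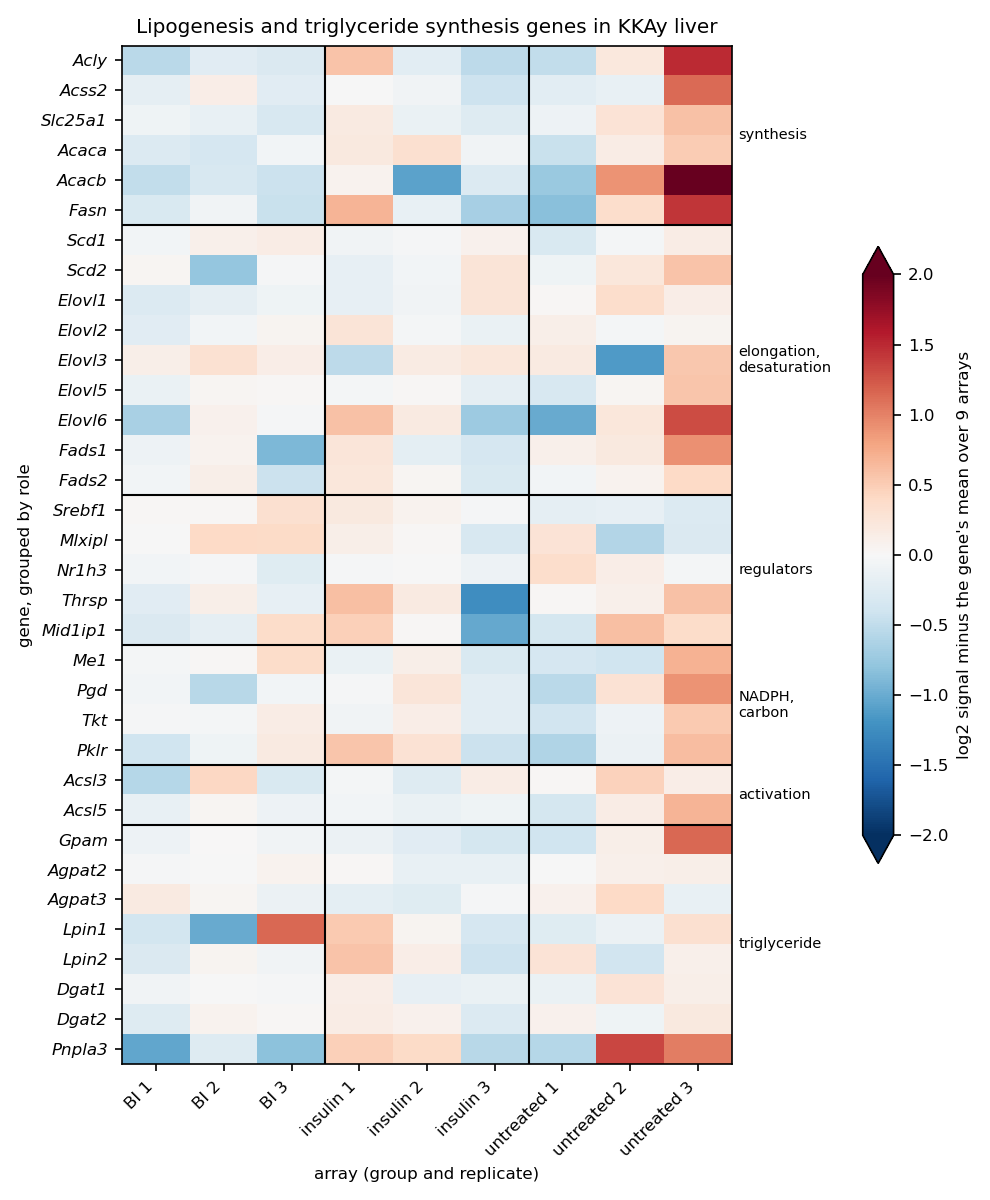
Each row is a gene and each column an array, and the colour gives the log2 signal minus that gene's mean over the 9 arrays (red above, blue below, colours end at 2 in either direction). Untreated replicate 3, the last column, was red for most genes, while Srebf1 was blue on each of the 3 untreated arrays.

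**Figure D2:**
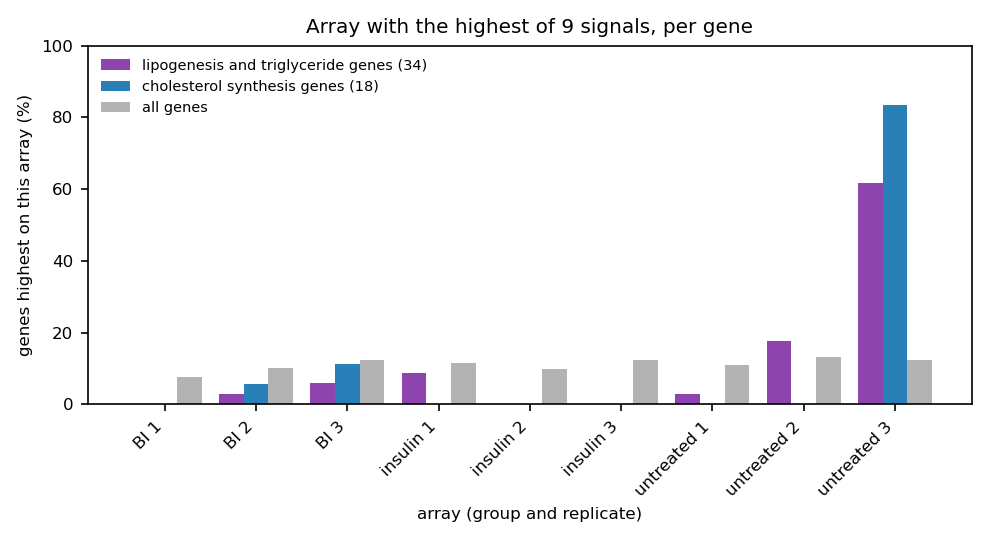
Bars give the percentage of genes whose highest signal fell on each array, for the 34 lipogenesis and triglyceride genes, 18 cholesterol synthesis genes and all genes. Untreated replicate 3 held 61.8% of the lipogenesis and triglyceride genes, 15 of the 18 cholesterol synthesis genes and 12.4% of all genes.

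Several measures of the arrays stood beside this. As a measure of RNA integrity, the Gapdh probe set at the 3' end minus the one at the 5' end read 0.39, 0.26 and 0.42 on the BI arrays and 0.55, 0.54 and 0.48 on the insulin arrays, against 0.28, 0.31 and 0.65 on the untreated arrays. That of beta-actin was 1.96 to 2.09 with BI and 2.00 to 2.23 with insulin, against 1.90, 1.80 and 2.11 without treatment, so untreated replicate 3 was the highest of its group for both genes. The part of RNA quality in the differences was not tested. Hepatocyte markers, read as the log2 of their summed signal over 9 of 10 listed genes, spanned 18.25 to 18.41 in BI livers and 18.26 to 18.37 in insulin livers, against 18.23 to 18.46 in untreated livers, with replicate 3 the highest. Endothelial markers (8 genes) spanned 12.17 to 12.60 with BI and 12.65 to 12.96 with insulin, against 12.26 to 12.79 without treatment. Adipocyte markers (8 of 10 genes) spanned 15.97 to 16.25 with BI and 15.89 to 16.16 with insulin, against 15.30 to 16.12 without treatment. All 8 had a higher mean over both treated groups than in untreated livers, beside 51.5% of all genes, with none called. The smallest of these differences was 0.04. With BI alone 6 were higher and 2, Fabp4 and Pck1, were lower, and with insulin alone 6 were higher and 2 lower. No marker of any list was at 0 on any array. The sum was mostly Car3, which liver expresses too. Pck1 spanned 13.75 to 14.40 over the 9 arrays, beside 13.61 to 13.84 for the hepatocyte marker Hnf4a. Adipoq, the fat cell hormone adiponectin, read 4.39, 4.24 and 5.45 in BI livers and 2.59, 4.95 and 4.89 in insulin livers, against 0.45, 1.69 and 4.01 in untreated livers. Every BI array thus lay above every untreated one, at 2.64 ± 1.00 with an unadjusted p under 0.05. Each value was still below its array's median (6.11 to 6.30). Of the 8 markers Adipoq alone was higher at that p with BI, beside 2.13% of all genes. It was also the 1 marker wholly above untreated livers, beside 4.84%. Among the other fat markers Lep was at most 4.23 and Fabp4, which macrophages and endothelium express too, spanned 9.06 to 11.07 over the 9 arrays. Neutrophil markers (4 of 6 genes) spanned 9.94 to 11.40 with BI and 10.45 to 12.02 with insulin, against 10.61 to 13.22 without treatment, with the highest value on untreated replicate 2. Kupffer cell and macrophage markers (8 genes) spanned 13.60 to 14.53 with BI and 13.81 to 14.36 with insulin, against 13.49 to 14.37 without treatment. Stellate cell markers (8 genes) spanned 13.70 to 14.16 with BI and 13.80 to 14.11 with insulin, against 13.49 to 14.10 without treatment. Untreated replicate 1 was the lowest of the 9 arrays for both of these lists. Lymphocyte markers (7 of 9 genes) spanned 7.88 to 8.40 with BI and 8.01 to 8.20 with insulin, against 7.60 to 8.03 without treatment, the lowest being untreated replicate 3. All 8 Kupffer cell and macrophage markers and all 8 endothelial markers had a lower mean with BI than with insulin, beside 54.3% of all genes, with none called. Every BI array lay below every insulin array for 1 of the former 8 and 4 of the latter 8, beside 5.68% of all genes. The part of cell composition was not tested, and in whole liver fewer cells of a type and less RNA per cell cannot be told apart.

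Promoter sequences are shown for 4 genes: Acacb, the gene with the widest span among untreated arrays; Fasn, the synthase itself; Slc25a1, the citrate carrier; and Pnpla3, the gene with the smallest unadjusted p. They were chosen after their values were seen. Each is the 250 bases before the RefSeq start in GRCm38.p6, written 5′ to 3′ on the gene's strand: Acacb at chr5:114165268-114165517 on the plus strand, Fasn at chr11:120824548-120824797 on the minus strand, Slc25a1 at chr16:17928220-17928469 on the minus strand, and Pnpla3 at chr15:84167566-84167815 on the plus strand. Capitals mark matches, on either strand, to the E-box CACGTG, to the sterol element pattern TCACNCCAC and to the CCAAT box CCAAT, whose reverse reads ATTGG.

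Acacb: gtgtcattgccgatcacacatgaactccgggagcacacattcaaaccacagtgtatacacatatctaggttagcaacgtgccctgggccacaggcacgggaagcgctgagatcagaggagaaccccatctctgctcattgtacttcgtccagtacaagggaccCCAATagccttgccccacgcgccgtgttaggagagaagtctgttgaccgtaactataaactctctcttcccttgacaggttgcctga
Fasn: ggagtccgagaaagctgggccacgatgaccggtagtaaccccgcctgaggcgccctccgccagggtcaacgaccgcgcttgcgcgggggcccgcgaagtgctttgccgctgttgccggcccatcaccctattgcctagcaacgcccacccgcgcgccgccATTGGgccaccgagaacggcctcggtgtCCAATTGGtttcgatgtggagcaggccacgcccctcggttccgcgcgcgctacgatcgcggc
Slc25a1: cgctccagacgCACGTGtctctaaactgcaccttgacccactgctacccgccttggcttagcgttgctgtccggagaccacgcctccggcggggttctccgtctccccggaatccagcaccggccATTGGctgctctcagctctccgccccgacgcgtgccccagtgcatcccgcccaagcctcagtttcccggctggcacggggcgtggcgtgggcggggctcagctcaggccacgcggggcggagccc
Pnpla3: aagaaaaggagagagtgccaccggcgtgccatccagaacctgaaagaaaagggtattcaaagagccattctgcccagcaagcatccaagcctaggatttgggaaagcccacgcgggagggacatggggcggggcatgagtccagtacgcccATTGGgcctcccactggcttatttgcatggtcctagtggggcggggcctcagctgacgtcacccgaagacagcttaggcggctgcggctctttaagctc

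In these windows Fasn had 3 CCAAT matches, at 90 to 86, 62 to 58 and 59 to 55 bases before the start, the last pair overlapping on opposite strands. Slc25a1 had an E-box at 239 to 234 bases and a CCAAT match at 125 to 121 bases before its start. Acacb had a single CCAAT match at 87 to 83 bases and Pnpla3 one at 99 to 95 bases. The promoter table held 28 of the 34 genes. Of these, 17 (60.7%) had a CCAAT match in a window, beside 37.5% of all 27025 genes of the table. An E-box match was found for 4 of the 28 (14.3%), namely Elovl5, Lpin2, Mlxipl and Slc25a1, beside 6.86% of all genes, and a sterol element match for Mlxipl alone (3.57%), beside 1.22%. A gene with several starts had several windows in which a match could fall. Counted by window, CCAAT matches were in 18 of 40 (45%), beside 33.8% of all 32851 windows. E-box matches were in 10% of the 40, beside 6.02%, and sterol element matches in 2.5%, beside 1.05%. All of these are letter matches, and they do not show binding.

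Among the 6 genes that supply and condense the carbon, all were lower in BI livers (median -0.51) and 5 of 6 in insulin livers (median -0.39), with none called. Acly, which cleaves citrate to acetyl-CoA, read 12.71, 13.02 and 12.96 in BI livers and 13.81, 13.03 and 12.73 in insulin livers, against 12.75, 13.45 and 14.74 in untreated livers. The groups overlapped, and only untreated replicate 3 stood above all treated arrays. The differences were -0.75 ± 0.51 with BI and -0.46 ± 0.51 with insulin, and without untreated replicate 3 they were -0.20 and 0.09. Leaving out untreated replicate 1 instead gave -1.20 and -0.91. Acacb encodes the acetyl-CoA carboxylase at mitochondria, whose malonyl-CoA restrains fatty acid oxidation. It read 7.76, 7.93 and 7.81 in BI livers and 8.32, 7.18 and 7.97 in insulin livers, against 7.50, 9.15 and 10.60 in untreated livers. Both untreated replicates 2 and 3 exceeded every treated array and replicate 1 lay among them, so replicate 3 was 8.58-fold above replicate 1 in the same group. This gene had the lowest difference of the 34 with insulin (-1.26 ± 0.71) and was at -1.25 ± 0.71 with BI. Without untreated replicate 3 the differences were -0.50 with insulin and -0.49 with BI, and without replicate 1 they were -2.05 and -2.04.

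Fasn, fatty acid synthase, read 12.57, 12.82 and 12.44 in BI livers and 13.57, 12.74 and 12.21 in insulin livers, against 12.05, 13.24 and 14.31 in untreated livers. Its BI values were close together (SD 0.19), its insulin values less so (SD 0.68) and its untreated values spread most (SD 1.13), with untreated arrays at both ends of the 9. The difference was -0.59 ± 0.58 with BI and -0.36 ± 0.58 with insulin, and -0.03 and 0.19 without untreated replicate 3. It was -1.17 and -0.94 without untreated replicate 1. Acaca, the cytosolic carboxylase that feeds Fasn, read 10.32, 10.26 and 10.55 in BI livers and 10.79, 10.92 and 10.52 in insulin livers, against 10.15, 10.75 and 11.10 in untreated livers. Untreated arrays again held both extremes, and the differences of -0.29 ± 0.27 with BI and 0.08 ± 0.27 with insulin were near their standard errors or below them. Without untreated replicate 3 they were -0.07 and 0.30, and without replicate 1 they were -0.54 and -0.18. Slc25a1, which carries citrate out of mitochondria, was at -0.44 ± 0.23 with BI and -0.32 ± 0.23 with insulin. Acss2, which makes acetyl-CoA from acetate, was at -0.35 ± 0.37 and -0.43 ± 0.37, and without untreated replicate 3 both signs turned, to 0.09 and 0.01. The Acss2 differences were -0.59 and -0.67 without untreated replicate 1.

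**Figure D3:**
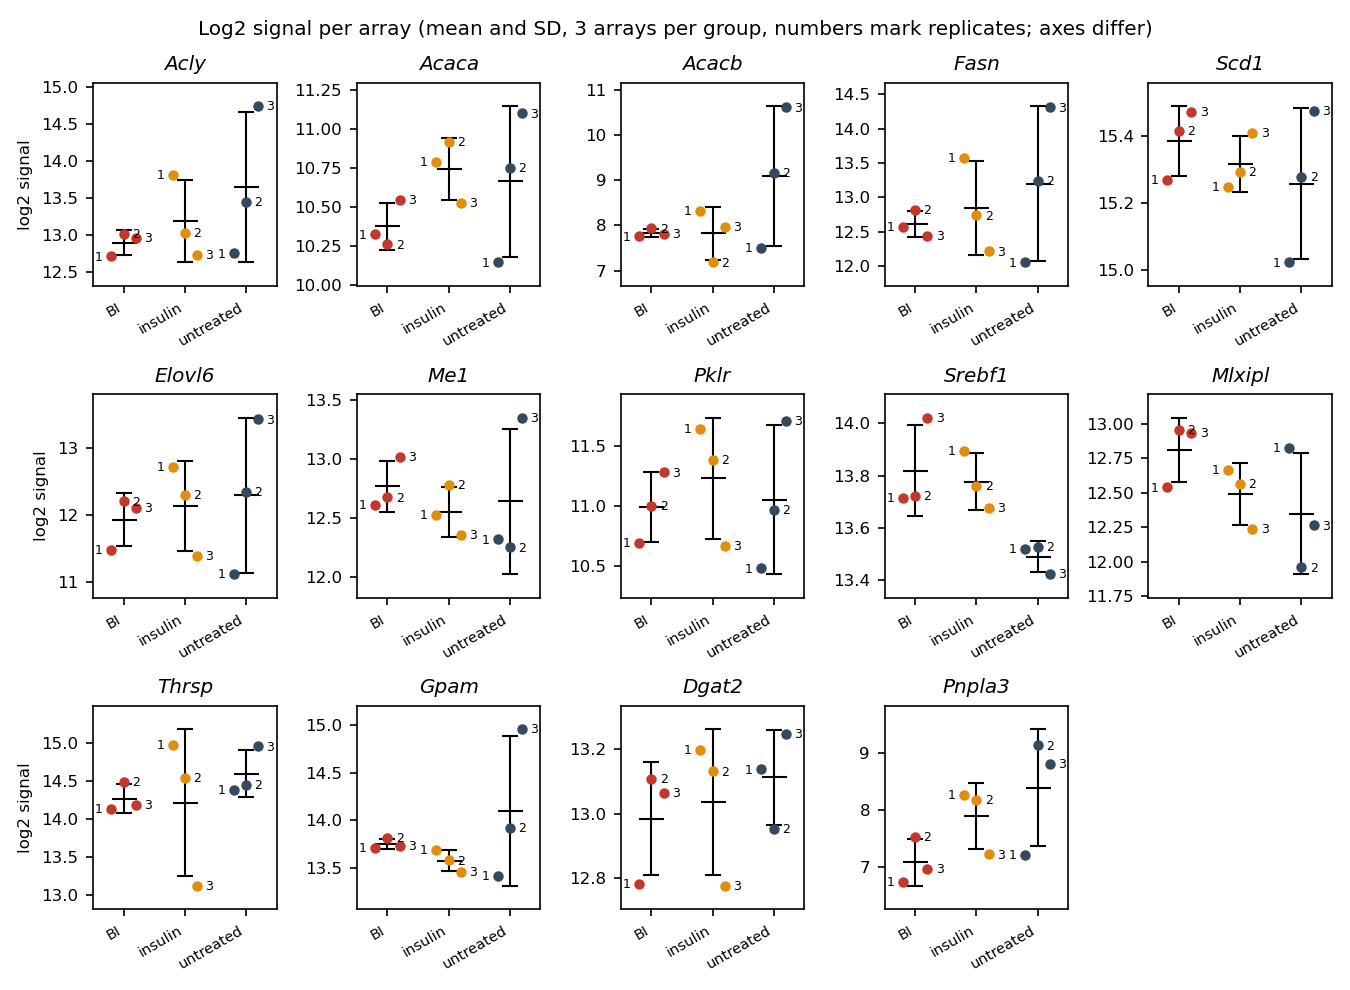
Points are log2 signals of single arrays for 14 genes, numbered by replicate, with the mean and SD of the 3 arrays of each group, and each panel has its own axis. Untreated replicates 1 and 3 bracket the other 7 arrays for Fasn and Elovl6, while the 3 untreated arrays of Srebf1 lie below the 6 treated ones.

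Elongation and desaturation genes were lower in 7 of 9 cases with BI (median -0.26) and in 7 of 9 with insulin (median -0.16), with none called. Elovl6, which extends palmitate to stearate, read 11.48, 12.21 and 12.11 in BI livers and 12.72, 12.30 and 11.40 in insulin livers, against 11.12, 12.35 and 13.43 in untreated livers. The groups overlapped throughout, and the difference of -0.37 ± 0.60 with BI became 0.20 without untreated replicate 3. That with insulin was -0.16 ± 0.60 and became 0.40. Leaving out untreated replicate 1 instead gave -0.96 with BI and -0.75 with insulin. Fads1, the delta-5 desaturase of polyunsaturated fatty acids, read 12.19, 12.37 and 11.40 in BI livers and 12.54, 12.09 and 11.96 in insulin livers, against 12.39, 12.48 and 13.20 in untreated livers. Every BI array lay just below every untreated one, and the difference was -0.71 ± 0.34 (95% interval -1.51 to 0.09). It was -0.46 without untreated replicate 3 and -0.86 without replicate 1. A further, dimmer probe set of Fads1 read 7.02, 7.06 and 7.41 in BI livers, against 6.97, 6.92 and 7.41 in untreated livers, and stood at 0.06 ± 0.24, so the 2 probe sets differed in sign. Elovl1, an elongase of very long chains, was the other gene whose BI arrays (11.21, 11.30 and 11.40) all lay below the untreated ones (11.51, 11.83 and 11.61), and its difference was -0.35 ± 0.18. A further probe set of Elovl1 was separated in the same way, and 2 others overlapped. Thus 2 of 34 genes lay wholly below untreated liver with BI, beside 4.52% of all genes, and 1 of 34 wholly above, beside 4.84%. With insulin the counts were 0 below, beside 3.48%, and 1 above, beside 5.74%.

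Scd1, the stearoyl-CoA desaturase that makes oleate, read 15.27, 15.41 and 15.47 in BI livers and 15.25, 15.29 and 15.41 in insulin livers, against 15.02, 15.28 and 15.47 in untreated livers. The 9 values lay within 0.45 of each other. Its dimmer probe set spread far more, with 12.85, 12.71 and 12.21 in BI livers and 12.97, 12.54 and 12.67 in insulin livers, against 10.97, 13.05 and 13.63 in untreated livers. Both probe sets placed untreated replicate 1 lowest and replicate 3 highest. Among the remaining genes of this step, Scd2 was at -0.49 ± 0.29, Fads2, the delta-6 desaturase, at -0.26 ± 0.23 and Elovl2 at -0.12 ± 0.17 with BI. Elovl5 was at -0.12 ± 0.24 with BI, or 0.11 without untreated replicate 3 and -0.32 without replicate 1. Elovl3 was at 0.32 ± 0.43 with BI and 0.09 ± 0.43 with insulin, its lowest value (13.09) being on untreated replicate 2.

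Of the 5 regulators, 3 were lower and 2 higher in BI livers and likewise in insulin livers, with none called. Srebf1 was the 1 gene of the 34 with every treated array above every untreated one, reading 13.71, 13.72 and 14.02 in BI livers and 13.89, 13.76 and 13.68 in insulin livers, against 13.52, 13.53 and 13.42 in untreated livers. The difference was 0.33 ± 0.16 with BI (95% interval -0.05 to 0.71) and 0.29 ± 0.16 with insulin (95% interval -0.09 to 0.67), small in size and not past the threshold. Over both treated groups it was 0.31 ± 0.14, a 1.24-fold higher signal. Beside this 1 of 34 genes, 1.27% of all genes had all 6 treated arrays above the untreated ones, and 0.907% had them below, where the count among the 34 was 0. The Srebf1 difference was 0.30 with BI and 0.25 with insulin when untreated replicate 3 was left out, and that array, highest for 21 of the 34 genes, was the lowest of the 9 for Srebf1. The probe set does not separate the SREBP-1a and SREBP-1c transcripts by anything in the files. Mlxipl, which encodes the glucose-responsive factor ChREBP, read 12.54, 12.95 and 12.93 in BI livers and 12.66, 12.57 and 12.23 in insulin livers, against 12.82, 11.96 and 12.26 in untreated livers. The groups overlapped at 0.46 ± 0.27 with BI and 0.14 ± 0.27 with insulin. Nr1h3, encoding LXR-alpha, was at -0.25 ± 0.17 and -0.19 ± 0.17.

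Thrsp and Mid1ip1 encode 2 related proteins, Spot 14 and its paralog, that promote fatty acid synthesis. Thrsp read 14.13, 14.48 and 14.19 in BI livers and 14.96, 14.54 and 13.12 in insulin livers, against 14.38, 14.45 and 14.95 in untreated livers. Insulin replicate 3 stood below each of the other arrays, and it was also the lowest of the 9 for Mid1ip1 (10.47, against 11.51 and 11.96 on the other insulin arrays). The second probe set of Thrsp put that array lowest too, at 11.38. The difference of Thrsp was -0.33 ± 0.46 with BI and -0.38 ± 0.46 with insulin, and that of Mid1ip1 -0.24 ± 0.43 and -0.38 ± 0.43.

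Of the genes that supply NADPH and glycolytic carbon, 2 of 4 were lower with BI and 3 of 4 with insulin, with medians of -0.02 and -0.07. Me1, the malic enzyme, read 12.61, 12.68 and 13.02 in BI livers and 12.53, 12.78 and 12.36 in insulin livers, against 12.32, 12.25 and 13.35 in untreated livers. All 6 treated arrays lay between untreated replicates 1 and 3, at differences of 0.13 ± 0.32 with BI and -0.09 ± 0.32 with insulin. Without untreated replicate 3 they were 0.48 and 0.27, so the sign with insulin rests on that array. Leaving out untreated replicate 1 instead gave -0.03 and -0.25. Pklr, the liver pyruvate kinase and a known ChREBP target, read 10.70, 11.00 and 11.28 in BI livers and 11.64, 11.38 and 10.67 in insulin livers, against 10.48, 10.97 and 11.71 in untreated livers. The groups overlapped fully, at -0.06 ± 0.38 and 0.18 ± 0.38, or 0.27 and 0.50 without untreated replicate 3. The Pklr differences were -0.35 and -0.11 without untreated replicate 1. Pgd, of the pentose phosphate route, was at -0.44 ± 0.37 and -0.21 ± 0.37, and Tkt, which shuffles its sugars, at 0.02 ± 0.25 and -0.06 ± 0.25. Without untreated replicate 3, Pgd was at -0.10 and 0.13 and Tkt at 0.27 and 0.20. Without replicate 1, Pgd was at -0.82 and -0.59 and Tkt at -0.18 and -0.25.

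Of the genes of triglyceride synthesis and remodelling, 8 of 8 were lower with BI (median -0.12) and 6 of 8 with insulin (median -0.15), with none called. Gpam encodes the mitochondrial glycerol-3-phosphate acyltransferase that starts triglyceride synthesis. It read 13.71, 13.81 and 13.73 in BI livers and 13.69, 13.58 and 13.46 in insulin livers, against 13.41, 13.92 and 14.96 in untreated livers. Untreated replicate 3 lay above every treated array, and the differences of -0.35 ± 0.36 with BI and -0.52 ± 0.36 with insulin were 0.08 and -0.09 without it. They were -0.69 and -0.86 without untreated replicate 1. Dgat2, which adds the last acyl chain in liver, read 12.78, 13.11 and 13.06 in BI livers and 13.20, 13.13 and 12.78 in insulin livers, against 13.14, 12.95 and 13.25 in untreated livers. No group stood apart, at -0.13 ± 0.19 and -0.08 ± 0.19. Dgat1 was at -0.13 ± 0.18 and -0.15 ± 0.18, and Agpat2 at -0.05 ± 0.15 and -0.16 ± 0.15.

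Pnpla3, a lipid droplet acylhydrolase that SREBP-1c induces, had the lowest difference of the 34 with BI. It read 6.74, 7.53 and 6.97 in BI livers and 8.26, 8.18 and 7.22 in insulin livers, against 7.22, 9.13 and 8.81 in untreated livers. BI replicate 2 (7.53) lay above untreated replicate 1 (7.22), so the groups overlapped, and the other BI arrays lay below every untreated one. The difference with BI was -1.30 ± 0.54 (95% interval -2.57 to -0.04), a 2.47-fold lower signal with an adjusted p of 0.999 by limma. It was -1.09 without untreated replicate 3 and -1.89 without replicate 1. With insulin and all arrays it was -0.50 ± 0.54. The phosphatidate phosphatase gene Lpin1 varied most among BI livers, at 8.47, 7.83 and 9.99. It differed by -0.06 ± 0.53 from untreated livers, or 0.11 without untreated replicate 3 and -0.17 without replicate 1. Lpin2, of the same family, was at -0.11 ± 0.30 with BI, while the dimmest of its 3 further probe sets (mean level 6.93) stood at 0.98 ± 0.36, with an unadjusted p under 0.05 and all BI arrays (7.63, 7.06 and 7.27) above all untreated ones (5.93, 6.28 and 6.82). The other further probe sets of Lpin2 stood at 0.14 ± 0.28 and -0.09 ± 0.32, with overlapping groups. Agpat3 was at -0.08 ± 0.19 with BI and -0.27 ± 0.19 with insulin. Of the acyl-CoA synthetases, Acsl3 was at -0.36 ± 0.29 and -0.26 ± 0.29, and Acsl5 at -0.23 ± 0.26 and -0.25 ± 0.26. Without untreated replicate 3 the Acsl5 differences were 0.03 and 0.004, and without replicate 1 they were -0.48 and -0.51.

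**Figure D4:**
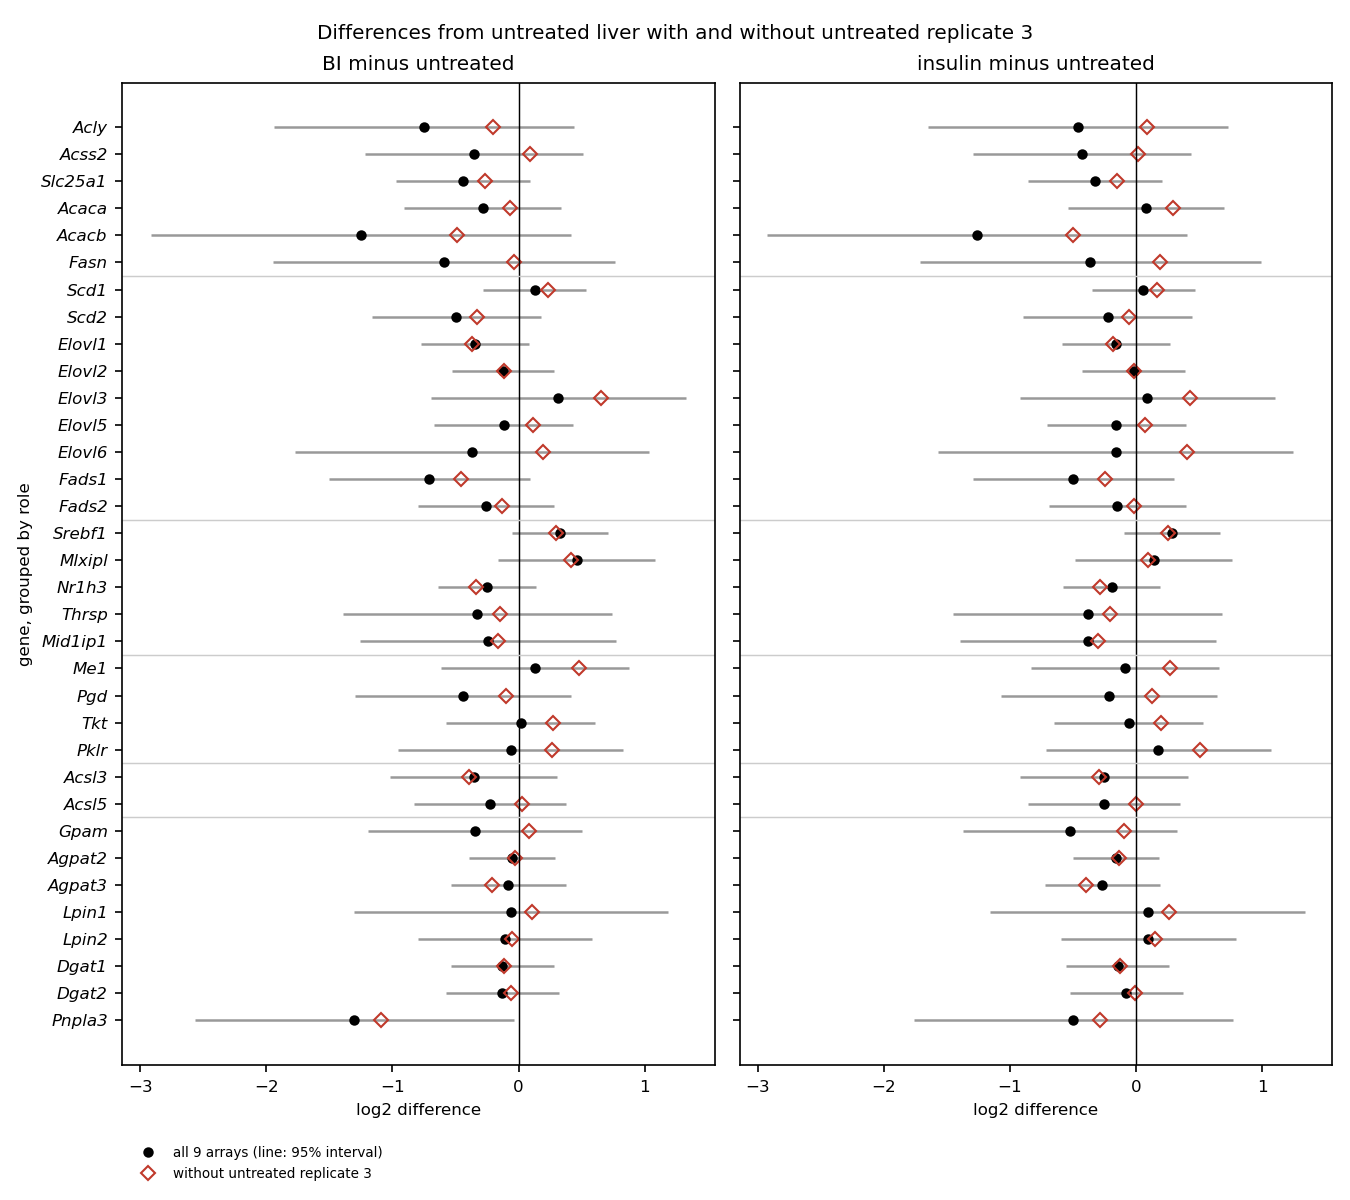
Filled points are log2 differences from untreated liver with their 95% intervals from the limma fit, and open diamonds are the differences without untreated replicate 3, for BI (left) and insulin (right). With all arrays Pnpla3 in BI livers had the only interval that did not reach 0, and the diamonds of Fasn, Elovl6 and Gpam lie nearer to 0 or on the other side of it. Differences without untreated replicate 1, further below 0 for Fasn, Elovl6 and Gpam, are not drawn.

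BI was also set against insulin, which asks whether the mixture acts differently from plain insulin at the same total concentration. Of the 34 genes 18 were lower in BI livers and 16 higher, with a median of -0.05, against -0.03 over all genes, and 0 were called beside 0% of all probe sets. The median had no settled sign, being 0.04 without BI replicate 1 or without insulin replicate 1 and -0.12 without insulin replicate 3. At an unadjusted p under 0.05, 0 were lower and 0 higher, beside 1.89% and 1.55% of all genes. Pnpla3 had the lowest value (-0.81 ± 0.54, 95% interval -2.07 to 0.46) and Mlxipl the highest (0.32 ± 0.27, 95% interval -0.30 to 0.94). Gpam alone had every BI array above every insulin array, by 0.18 ± 0.36, beside 4.2% of all genes, and 0 genes had them below, beside 5.68%. The intervals do not show that the groups were alike: for Fasn the interval ran from -1.58 to 1.12 and for Acacb from -1.65 to 1.68.

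The spread within groups was itself uneven. The SD between arrays had a median over the 34 genes of 0.17 in BI livers and 0.22 in insulin livers, against 0.44 in untreated livers. For the 8237 genes at least as bright as the dimmest of the 34, these medians were 0.15 and 0.15, against 0.19. The untreated group had the largest SD of the 3 groups for 21 of 34 genes (61.8%), beside 46.2% of those 8237 genes. Of the 34 genes, 11 were more than 1 log2 unit higher on untreated replicate 3 than on replicate 1, beside 1.61% of those 8237 genes. After Acacb the widest were Elovl6 (4.94-fold), Fasn (4.80-fold), Acly (3.97-fold), Pnpla3 (3.01-fold) and Gpam (2.92-fold), while 6 of 34 genes ran the other way, namely Mlxipl (0.68-fold), Nr1h3 (0.77-fold), Agpat3 (0.85-fold), Lpin2 (0.89-fold), Srebf1 (0.94-fold) and Elovl2 (0.96-fold).

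Further probe sets of the same genes mostly had the same sign in the comparisons with untreated livers, and about as often the opposite sign in BI against insulin. Of 34 further probe sets with a mean level at or above the median of all probe sets (6.04), 25 had the sign of the brightest one with BI, 25 with insulin and 18 in BI against insulin. Of 9 dimmer ones, 3, 4 and 4 did. Acacb was the plainest case of disagreement, its dim probe set standing at 1.66 ± 1.11 with BI, with BI arrays at 1.73, 5.50 and 6.49, against untreated arrays at 3.68, 2.45 and 2.61.

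Other genes of fatty acid and triglyceride synthesis, 47 measured of 50 listed, were lower about as often as higher. With BI 23 of 47 were lower (median 0.00) and with insulin 24 of 47 (median -0.00), with 0 called in either comparison. At an unadjusted p under 0.05, 0 of 47 were lower and 1 of 47 was higher in each. The shares of all genes were 1.77% lower and 2.13% higher with BI, and 1.39% and 2.48% with insulin. The gene with BI was Mogat1, a monoacylglycerol acyltransferase, at 0.61 ± 0.26 (means 11.18 in BI livers and 10.57 in untreated livers), and with insulin it was Mogat2, of the same family, at 1.80 ± 0.77, whose means of 5.72 in insulin livers and 3.91 in untreated livers lay below every array's median. The cholesterol synthesis genes, which SREBP-2 controls, were mostly lower in treated livers, with none called. Of 18 measured, 16 were lower with BI (median -0.51) and 17 with insulin (median -0.51), and untreated replicate 3 was the highest of the 9 arrays for 15 of 18. Without that array 14 of 18 were lower with BI (median -0.18) and 16 with insulin (median -0.18), beside 49.0% and 46.2% of all genes. Leaving out untreated replicate 1 instead gave medians of -0.76 and -0.74. With all arrays, 3 of the 18 were lower with BI at an unadjusted p under 0.05, beside 1.77% of all genes, and 1 with insulin, beside 1.39%. In each comparison 0 were higher, beside 2.13% and 2.48%. Those lower were Msmo1, a sterol demethylase (-1.14 ± 0.46 with BI and -1.36 ± 0.46 with insulin), Dhcr7, of the last step to cholesterol (-0.84 ± 0.34 with BI), and Hsd17b7 (-0.64 ± 0.22 with BI). Fatty acid oxidation genes had medians of 0.03 with BI and -0.01 with insulin over 22 genes, and untreated replicate 3 was highest for 4 of them.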

How the data were processed

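RNA from KKAy mouse liver was labelled with a 3' IVT kit and hybridised to one-colour Affymetrix arrays, per the labels' protocols. The authors deposited 1 log2 signal for each probe set, and its software was not given in the sources used here. After trimming 2% at each end, the linear signals averaged 500.004 on every array and the lowest value was 0, so values were used as deposited, with no background measure or detection call. Of 45101 probe sets, 64 controls were left out. Probe sets were named through a 2016 annotation of the platform, with 34741 of 34945 single-symbol probe sets matched to current names.

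All 9 arrays entered 1 limma fit (version 3.58.1, R 4.3.3, no trend in the variance prior, residual degrees of freedom 6), two-sided, with Benjamini-Hochberg adjustment over 45037 probe sets and a threshold of 0.05. The fit was tried on simulated data with noise independent between probe sets and planted changes larger than most differences described here. Those simulations held no array that shifts many genes together, so they do not show how the fit handles such arrays or small differences. The genes and lists were chosen with earlier results of these data known, so no list was tested, and lists are described by counts and medians. By rule, all 34 genes are named, with values on every array for 14 main genes of the pathway and for any of the 34 with an unadjusted p under 0.05, and genes of the related, cholesterol and fatty acid oxidation lists are named at that same p in a comparison of BI or insulin with untreated. Array values given for further genes, such as Fads1, Elovl1, Lpin1 and the marker Adipoq, were chosen after they were seen. Same-numbered arrays did not vary together (9 pairs, r = -0.03 to 0.04). The number of arrays limits the precision. Promoter sequences are from RefSeq. Other settings are given in the closing section.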

Additional observations from a re-analysis of the deposited data

How the results depend on the processing

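None of the 34 genes was called under any setting tried (other scalings by quantiles or by the array median, dim probe sets left out, a floor at 6, another variance moderation, a fit to the compared groups alone, weighted arrays, averaged probe sets per gene, the replicate number as a block, and each array left out). The probe sets called over the whole array in BI against untreated numbered 5, and 1 with the filter, 0 with the floor at 6, 0 in the fit to the compared groups alone, 2 with averaged probe sets (counted as genes) and 0 with the replicate block. With each array left out they numbered 0 to 2. In BI against insulin 0 became 1 with the filter and 1 with averaged probe sets, and 0 to 1 with each array left out. For the mean of both treated groups 0 became 1 with averaged probe sets. Leaving out each array, the genes lower than untreated numbered 21 to 30 with BI and 17 to 29 with insulin, the lowest counts being those without untreated replicate 3, and 10 to 25 in BI against insulin, the lowest without insulin replicate 1. The median differences then ran from -0.39 to -0.06 with BI and from -0.27 to -0.003 with insulin. Under the settings that kept all arrays the genes lower numbered 23 to 29 with BI, the lowest with averaged probe sets, and 25 to 26 with insulin. The medians under those settings ran from -0.27 to -0.14 with BI and from -0.21 to -0.16 with insulin. In BI against insulin the median ran from -0.06 to 0.03 under those settings and from -0.12 to 0.04 with each array left out. The genes at an unadjusted p under 0.05 numbered 0 to 6 with BI, 0 to 2 with insulin and 0 to 5 for the mean of both under the settings that kept all arrays, and 0 to 8, 0 to 3 and 0 to 9 with each array left out, the highest counts being those without untreated replicate 1. The share of all genes at that p was not computed under those settings. Single genes, none called, changed sign under at least 1 setting in 14 of 34 cases with BI and 22 of 34 with insulin. The cause was not tested. The files hold no background signal, so a dim probe set may or may not exceed it. The replicate block was only an alternative, since same-numbered arrays did not vary together (r = -0.03 to 0.04).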
